A study of Caenorhabditis elegans with 16 samples.

Results

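The genotype by temperature interaction asks whether embryos lacking *fbxa-215* differed from wild-type embryos in the same way at both growth temperatures. For each gene it is the log2 ratio of mutant over wild-type level at 25 °C minus the same ratio at 20 °C, so a value above 0 means a ratio that was higher at 25 °C. The comparison uses all 16 of the 16 *Caenorhabditis elegans* libraries, 4 in each of 4 groups, with the count tables of the 2 temperatures joined by gene identifier. The groups were SX3678 grown at 25 °C, N2 grown at 25 °C, SX3678 grown at 20 °C and N2 grown at 20 °C. SX3678 is one mutant strain with the *fbxa-215(syb4404)* allele, outcrossed to N2, the wild-type laboratory strain, so the allele and any other difference between the strains cannot be told apart. Parents were raised as a synchronized population, and gravid adults were bleached for mixed-stage embryos 47 h after plating at 25 °C and 56 h after plating at 20 °C. Polyadenylated RNA was sequenced without keeping strand. Temperature of growth, the hours to bleaching and the batch of collection cannot be told apart, so "25 °C" and "20 °C" below stand for all of these. No source names separate cultures for the 4 replicates of a group, so the tests measure the spread between these libraries, which may be partly technical.

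F-box proteins are the substrate receptors of SCF ubiquitin ligases, which mark selected proteins for degradation, and nematodes carry large families of them. In the early embryo most mRNA is supplied by the mother, and it is cleared as the zygotic genome switches on and as muscle, epidermis, neurons and cilia form. A mixed-stage sample therefore reads the proportion of young and old embryos as well as the RNA of each cell, and fewer cells of a type and less RNA per cell cannot be told apart. Embryos develop faster in the warm.

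Library totals lay between 10001670 and 16777296 counts. In the 8 mutant libraries *fbxa-215* (WBGene00012879, chromosome IV, 13665364 to 13666909) had 0 counts in 7 and 1 count in the other, against 162 ± 9.49 CPM in wild type at 25 °C and 230.3 ± 7.71 CPM in wild type at 20 °C (SD, n = 4 each; exact two-sided permutation p = 0.0286 at each temperature, the smallest that 70 assignments allow). CPM are counts scaled to a common library size. With the mutants at 0, the interaction of *fbxa-215* itself has no usable value. Within wild type its level was lower at 25 °C than at 20 °C, by -0.51 ± 0.05 on the log2 scale (adjusted p = 4.83e-09). The first principal component held 82.9% of the variance and separated the temperatures, and the second held 3.22% and separated the strains. On the first, the strains were also apart within each temperature. Scores were 46.8 to 60.6 in the mutants and 63.6 to 74.0 in wild type at 25 °C. At 20 °C they were -73.3 to -62.7 in the mutants and -54.3 to -46.2 in wild type. Adult transcripts, a list for carried-over adult tissue, summed to 7.87 to 10.4 CPM in the mutants and 8.23 to 11.6 CPM in wild type at 25 °C, and to 3.61 to 6.13 CPM in the mutants and 2.92 to 4.49 CPM in wild type at 20 °C.

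Of 12117 genes tested, 22 had an interaction at an adjusted p under 0.05 and a fold above 2 (0.182% of genes tested), 14 of them higher at 25 °C (0.116%) and 8 lower (0.066%). These are called genes in what follows. Without the fold minimum, 141 genes passed (1.16%), 57 higher (0.47%) and 84 lower (0.693%), and 1756 had an unadjusted p under 0.05 (14.5%). For comparison, the strains differed by the same rule in 50 genes at 25 °C (0.413%) and in 43 genes higher (0.355%) and 172 lower (1.42%) in mutants at 20 °C (1.77% together). The median interaction over all genes was -0.01 on the log2 scale, with 5793 of 12117 above 0 (47.8%). The standard error (SE) of the interaction had a median of 0.117 over all genes, 0.532 for the 2374 genes under 2 CPM and 0.0624 for the 2631 genes at 100 CPM or more. Of the 141 genes 63 were at 100 CPM or more and 6 were under 2 CPM, whereas none of the 22 called genes was at 100 CPM or more and 6 were under 2 CPM.

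Both counts moved with single libraries. The 22 became 9, 9 and 13 without mutant replicate 2, 3 or 4 at 25 °C, 64 without wild-type replicate 3 at 25 °C, 46, 7, 4 and 9 without mutant replicate 1, 2, 3 or 4 at 20 °C, and 5 when wild-type replicate 1 at 20 °C was left out. The 141 became 76, 54, 62 and 44 without mutant replicate 1, 2, 3 or 4 at 25 °C, 81 and 420 without wild-type replicate 1 or 3 at 25 °C, 29, 19 and 62 without mutant replicate 2, 3 or 4 at 20 °C, and 40 when wild-type replicate 1 at 20 °C was left out. All 22 genes were among the 64 called without wild-type replicate 3 at 25 °C, but 4 of them were called without mutant replicate 3 at 20 °C and 5 without mutant replicate 2 or wild-type replicate 1 at 20 °C. The balance of directions moved with the scaling: 57 of the 141 genes were higher (40.4%), against 87 of 145 with RLE scaling (60.0%), 74 of 133 with upper-quartile scaling (55.6%) and 107 of 166 with TMM scaling within each temperature (64.5%). All 22 called genes were called under each of these scalings.

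**Figure D1:**
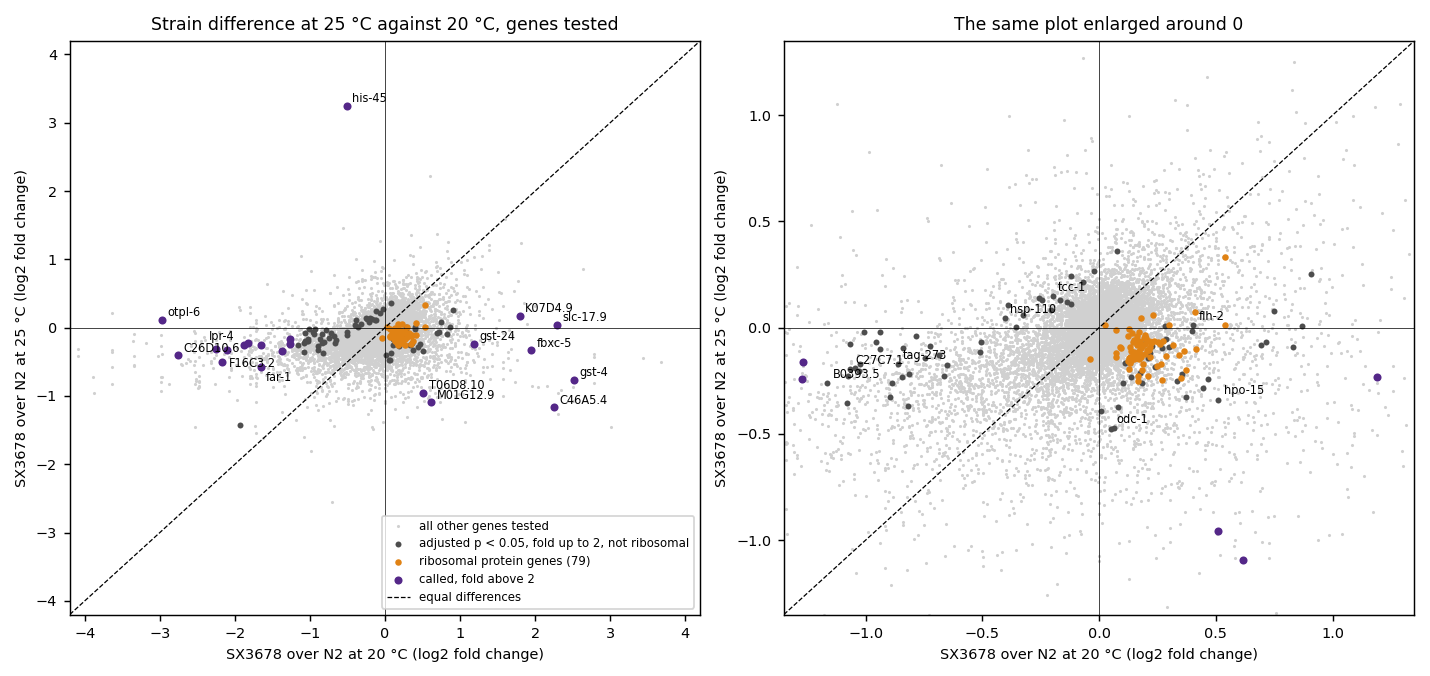
Strain difference of each gene (log2 fold change, SX3678 over N2) at 25 °C on the vertical axis against that at 20 °C on the horizontal axis; points off the dashed line have an interaction. Most called genes (purple) lie far from 0 at 20 °C and near 0 at 25 °C, and the 79 ribosomal protein genes (orange) sit right of 0 at 20 °C in 78 cases and below 0 at 25 °C in 72. *fbxa-215* and *mboa-1*, each at 0 counts in a group, are not drawn, and 6 genes in the left panel and 318 in the right lie beyond the axes.

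The 14 called genes with a higher ratio at 25 °C were all lower in mutants at 20 °C, 13 of them at an adjusted p under 0.05 (7.2% of genes tested), and 13 had their larger strain difference at 20 °C. At 25 °C 4 passed, 3 lower (3.94%) and 1 higher (2.67%) in mutants. All 4 mutant libraries were beyond the wild-type range in 13 of the 14 genes at 20 °C and in 3 at 25 °C (18.3% and 12.7% of genes tested do so in either direction). In wild type 12 of the 14 were higher at 25 °C than at 20 °C at an adjusted p under 0.05, where 36.1% of genes tested were, with a median of 2.92 on the log2 scale over the 14. Across mutants the corresponding median was 4.55, the 2 medians being parts of the same contrast. The 8 called genes with a lower ratio at 25 °C were all higher in mutants at 20 °C, 5 of them at an adjusted p under 0.05 (5.51% of genes tested), and 6 lay below wild type at 25 °C, 3 of them past that threshold. All 8 were higher at 25 °C than at 20 °C in wild type at an adjusted p under 0.05. The 22 were chosen by an interaction built from the same libraries and the same strain and temperature differences. The choice itself favours such differences, so these counts describe the called genes and the shares beside them test nothing. Only 4 of the 22, *lpr-4*, *ncx-2*, F30H5.3 and K07D4.9, kept their calls without each of the 16 libraries, and the others lost the call without 3 (*mboa-1*) to 14 libraries (T06D8.10 and *slc-17.9*), with no change of direction.

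Among secreted and membrane proteins the interaction with the smallest p was that of *lpr-4* (WBGene00012257, chromosome X, 11065126 to 11066811), which encodes a lipocalin-related protein of a family that acts in the apical matrix covering the embryonic epidermis. At 25 °C it had 66.2, 85.8, 71.7 and 68.1 CPM in the mutants and 94.8, 86.2, 102 and 78.5 CPM in wild type. At 20 °C it had 1.44, 1.23, 0.613 and 0.973 CPM in the mutants and 6.33, 4.32, 5.69 and 3.98 CPM in wild type. Mutants and wild type overlapped at 25 °C, whereas every mutant library was below every wild-type library at 20 °C. The strain difference was -0.31 ± 0.08 at 25 °C and -2.25 ± 0.26 at 20 °C, and the interaction was 1.94 ± 0.28 (adjusted p = 0.00168). The Na+/Ca2+ exchanger gene *ncx-2* (WBGene00003567, chromosome V, 5303689 to 5311270) had 56.8, 73.0, 65.3 and 63.1 CPM in the mutants and 74.1, 79.04, 91.2 and 62.7 CPM in wild type at 25 °C. At 20 °C *ncx-2* had 4.18, 3.09, 2.45 and 3.00 CPM in the mutants and 12.5, 8.71, 8.61 and 10.4 CPM in wild type. The groups overlapped at 25 °C and were apart at 20 °C, with an interaction of 1.40 ± 0.22 (adjusted p = 0.00250). For *far-1* (WBGene00001385, chromosome III, 9080371 to 9081179), a fatty acid and retinol binding protein secreted by nematodes, the libraries had 94.2, 122, 109 and 93.1 CPM in the mutants and 152, 147, 168 and 155 CPM in wild type at 25 °C. They had 3.13, 1.98, 1.499 and 2.68 CPM in the mutants and 10.1, 4.63, 7.86 and 6.12 CPM in wild type at 20 °C. Mutants were below wild type at both temperatures, by -0.57 ± 0.09 and -1.66 ± 0.24 on the log2 scale at 25 °C and 20 °C, and the interaction was 1.08 ± 0.26 (adjusted p = 0.0394). The gene *glf-1* (WBGene00019154, chromosome IV, 5885835 to 5889821) encodes UDP-galactopyranose mutase, which makes a sugar donor used in surface glycans. It had 28.2, 38.7, 36.7 and 26.9 CPM in the mutants and 41.8, 37.3, 46.0 and 39.4 CPM in wild type at 25 °C and 0.653, 0.741, 0.136 and 0.405 CPM in the mutants and 2.37, 1.70, 3.00 and 1.33 CPM in wild type at 20 °C. The strains overlapped at 25 °C and were apart at 20 °C, with an interaction of 1.77 ± 0.41 (adjusted p = 0.0360).

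The acyltransferase gene *mboa-1* (WBGene00007174, chromosome X, 16030806 to 16034814) had 6.44, 6.996, 7.56 and 5.67 CPM in the mutants and 10.03, 8.32, 10.01 and 6.84 CPM in wild type at 25 °C. At 20 °C it had 0, 0, 0 and 0 CPM in the mutants and 0.503, 0.231, 0.524 and 0.408 CPM in wild type. Every mutant library at 20 °C was at 0 counts, so no fold is given beyond a bound: the level was at least 2.01-fold lower than the wild-type mean of 0.417 CPM, taking 3 counts in a library as the floor (0.207 CPM). The interaction passed at an adjusted p of 0.0193, and the call was lost without mutant replicate 2 or 3 or wild-type replicate 1 at 20 °C, where the adjusted p reached 0.0737. The proton channel homologue *otpl-6* (WBGene00018479, chromosome V, 8526074 to 8528580) had 0.846, 0.567, 0.734 and 0.848 CPM in the mutants and 0.743, 0.444, 0.904 and 0.691 CPM in wild type at 25 °C. At 20 °C it had 0.0653, 0.0617, 0 and 0.0811 CPM in the mutants and 0.575, 0.386, 0.300 and 0.612 CPM in wild type. The strains overlapped at 25 °C and were apart at 20 °C, where 3 counts in the mutants stood against 23 in wild type, a ratio of 0.112 (95% exact interval 0.0214 to 0.369, counting error only). The fitted interaction was 3.08 ± 0.69 (adjusted p = 0.0312).

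Among genes of sensory cilia, *daf-10* (WBGene00000906, chromosome IV, 9136933 to 9146211) encodes a subunit of the complex that carries cargo back along the cilium. It had 11.3, 13.3, 13.1 and 13.8 CPM in the mutants and 16.1, 14.3, 18.5 and 16.2 CPM in wild type at 25 °C and 1.24, 1.36, 1.16 and 1.14 CPM in the mutants and 4.03, 3.08, 2.40 and 3.26 CPM in wild type at 20 °C. Mutants were below wild type at both temperatures with no overlap, by -0.34 ± 0.10 at 25 °C and -1.37 ± 0.20 at 20 °C on the log2 scale, and the interaction was 1.04 ± 0.22 (adjusted p = 0.0270). The kinase gene *dyf-5* (WBGene00001121, chromosome I, 9359067 to 9364238), which sets cilium length, had 12.2, 14.2, 13.3 and 14.1 CPM in the mutants and 15.7, 14.5, 19.0 and 14.6 CPM in wild type at 25 °C. At 20 °C *dyf-5* had 1.89, 1.42, 1.16 and 0.892 CPM in the mutants and 3.09, 3.86, 2.55 and 3.88 CPM in wild type. Its libraries were likewise apart at both temperatures, and the interaction was 1.03 ± 0.24 (adjusted p = 0.0360), lost without 11 of the 16 libraries.

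Of the remaining genes with a higher ratio at 25 °C, 5 carry only sequence names in the annotation and are given by level. F30H5.3 (WBGene00017937, chromosome III, 505241 to 512217) had 150.3, 195, 173 and 147 CPM in the mutants and 176, 205, 260.5 and 157 CPM in wild type at 25 °C. At 20 °C F30H5.3 had 4.90, 3.83, 2.66 and 3.57 CPM in the mutants and 18.2, 11.4, 13.9 and 11.1 CPM in wild type. The strains overlapped at 25 °C and were apart at 20 °C, with an interaction of 1.62 ± 0.28 (adjusted p = 0.00685). ZC84.1 (WBGene00013846, chromosome III, 9199358 to 9206285) had 18.4, 22.1, 21.4 and 19.3 CPM in the mutants and 21.7, 24.6, 26.5 and 18.04 CPM in wild type at 25 °C and 2.29, 1.98, 1.499 and 1.54 CPM in the mutants and 5.90, 3.55, 4.04 and 4.18 CPM in wild type at 20 °C, with an interaction of 1.10 ± 0.24 (adjusted p = 0.0270). ZC449.2 (WBGene00022612, chromosome X, 5021285 to 5024258) had 11.8, 16.6, 12.4 and 11.7 CPM in the mutants and 18.1, 13.3, 15.6 and 14.4 CPM in wild type at 25 °C and 0.718, 0.679, 0.341 and 0.0811 CPM in the mutants and 2.30, 1.54, 1.27 and 1.73 CPM in wild type at 20 °C, with an interaction of 1.60 ± 0.40 (adjusted p = 0.0451). In both, the mutant libraries at 20 °C were below wild type without overlap and those at 25 °C overlapped wild type. C26D10.6 (WBGene00007746, chromosome II, 8350530 to 8354700) had 4.04, 4.47, 5.43 and 3.19 CPM in the mutants and 5.63, 5.59, 6.05 and 5.32 CPM in wild type at 25 °C and 0.131, 0.123, 0.0682 and 0.0811 CPM in the mutants and 0.431, 0.771, 0.749 and 1.12 CPM in wild type at 20 °C, with an interaction of 2.35 ± 0.52 (adjusted p = 0.0293). F16C3.2 (WBGene00008886, chromosome I, 10150280 to 10155105) had 1.56, 2.39, 2.35 and 2.28 CPM in the mutants and 3.28, 2.35, 3.06 and 3.46 CPM in wild type at 25 °C and 0.327, 0.309, 0.204 and 0.162 CPM in the mutants and 0.935, 1.39, 1.05 and 1.43 CPM in wild type at 20 °C, with an interaction of 1.67 ± 0.41 (adjusted p = 0.0425). These 2 genes were at or under 0.327 CPM in each mutant library at 20 °C.

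The histone gene *his-45* (WBGene00001929, chromosome IV, 11337853 to 11338263) behaved unlike the other 13. It had 0.716, 2.77, 2.06 and 0.391 CPM in the mutants and 0, 0.571, 0 and 0 CPM in wild type at 25 °C. At 20 °C it had 3.13, 2.65, 3.00 and 3.41 CPM in the mutants and 6.33, 3.55, 4.34 and 2.75 CPM in wild type. Mutants were the higher group at 25 °C, although 3 wild-type libraries were at 0 and the fourth overlapped the mutants, and the groups overlapped at 20 °C. The interaction was 3.76 ± 0.82 (adjusted p = 0.0276), and it is uncertain, since near-identical histone genes share reads and its estimated counts were whole in only 3 of the 16 libraries. Wild type at 25 °C also rested on 1 library above 0. Over the alternatives the fitted value ran from 3.24 to 7.93, the highest without that library. The call was lost without 6 of the 16 libraries. It was the only one of 60 histone genes tested to pass, and the median interaction of the 60 was -0.03.

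**Figure D2:**
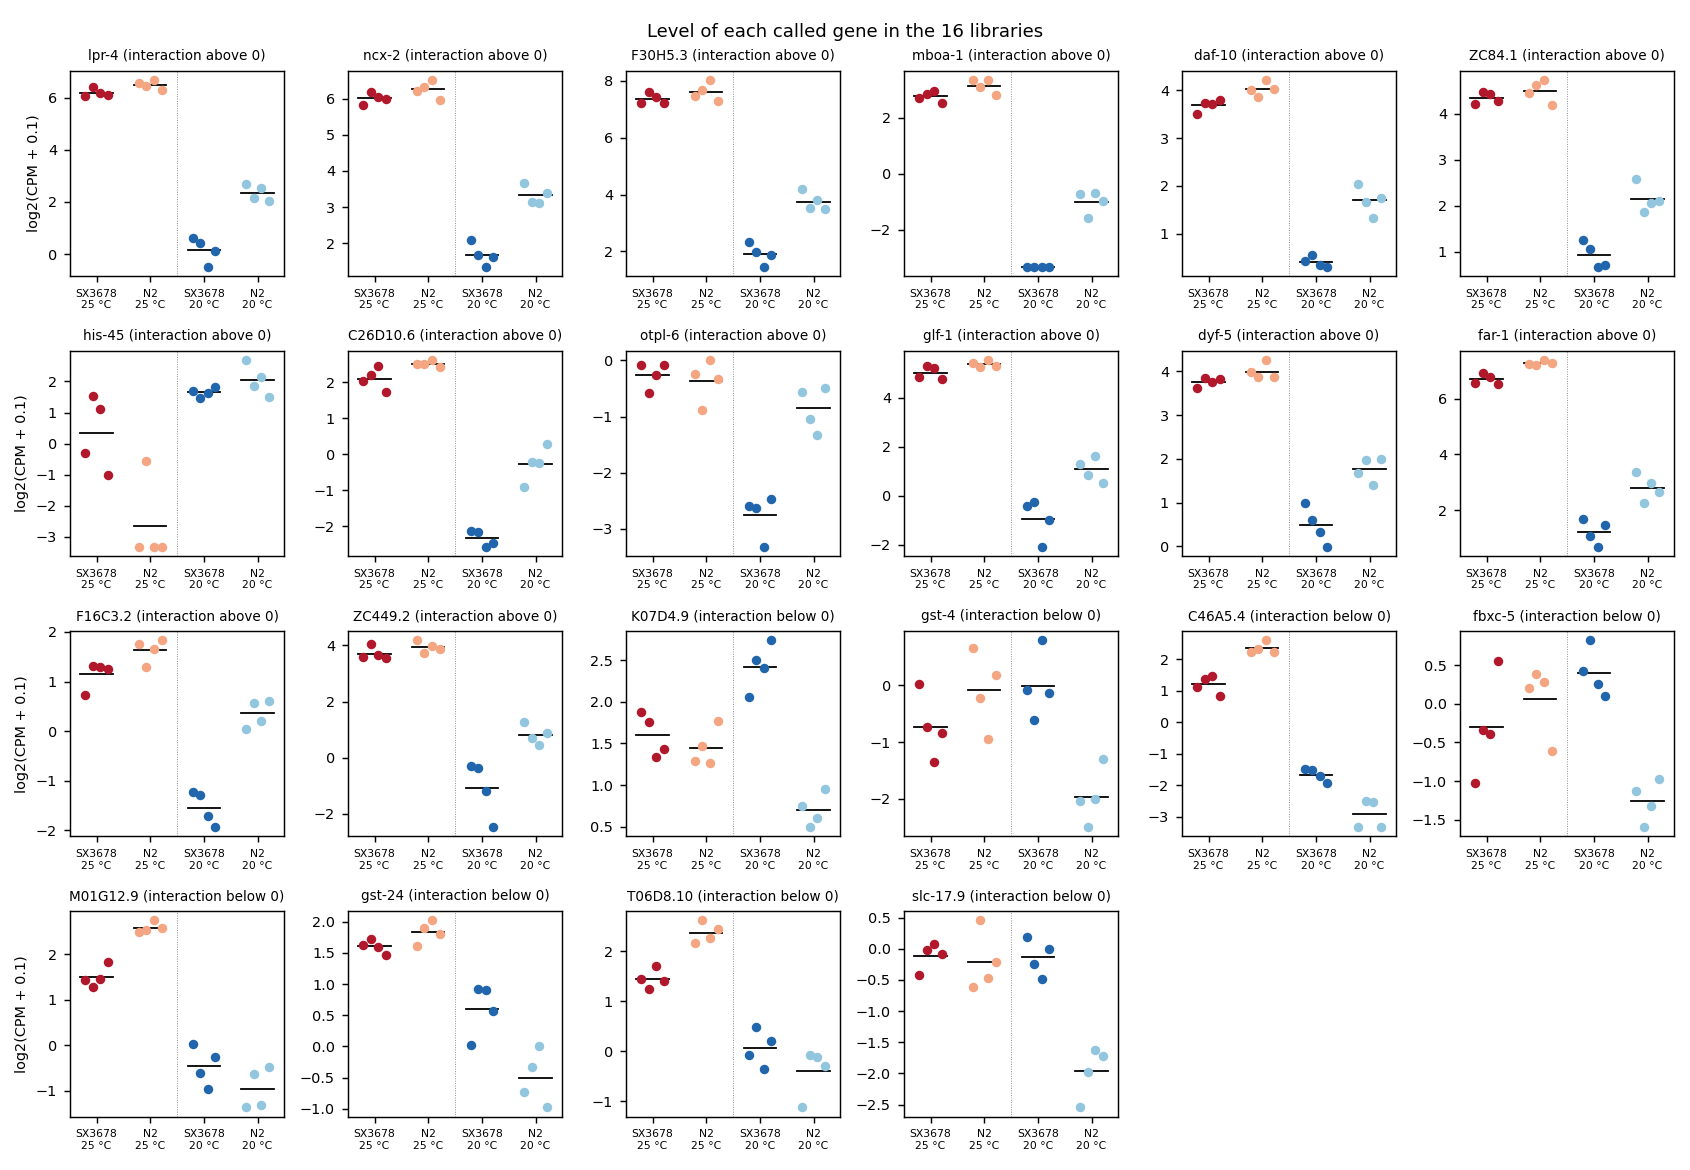
Level of each of the 22 called genes in the 16 libraries, as log2(CPM + 0.1), with a bar at the mean of the 4 log values of each group; within a group the points run from replicate 1 to 4. In the first 14 panels except *his-45* the mutant libraries at 20 °C lie below wild type, and in the last 8 panels they lie above it or overlap it.

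Among the 8 called genes with a lower ratio at 25 °C, 2 encode glutathione S-transferases, detoxification enzymes that join glutathione to reactive compounds. *gst-4* (WBGene00001752, chromosome IV, 10142225 to 10143099) is widely used as a reporter of the oxidative stress regulator SKN-1. It had 0.911, 0.504, 0.294 and 0.456 CPM in the mutants and 1.49, 0.762, 0.417 and 1.04 CPM in wild type at 25 °C. At 20 °C *gst-4* had 0.849, 0.556, 1.64 and 0.811 CPM in the mutants and 0.144, 0.0771, 0.150 and 0.306 CPM in wild type. Mutants were above wild type in every library at 20 °C and overlapped it at 25 °C, at no more than 24 counts in any library. The strain difference was -0.76 ± 0.41 at 25 °C and 2.52 ± 0.56 at 20 °C, with an interaction of -3.28 ± 0.70 (adjusted p = 0.0256). *gst-24* (WBGene00001772, chromosome II, 13610443 to 13611366) had 2.99, 3.21, 2.94 and 2.67 CPM in the mutants and 2.97, 3.62, 3.96 and 3.39 CPM in wild type at 25 °C and 0.914, 1.79, 1.77 and 1.38 CPM in the mutants and 0.503, 0.694, 0.899 and 0.408 CPM in wild type at 20 °C. Again the groups were apart only at 20 °C, with mutants above, and the interaction was -1.42 ± 0.34 (adjusted p = 0.0387). *gst-16* (WBGene00001764, chromosome II, 13622967 to 13624440), with an interaction under 2-fold, had 7.42, 7.44, 7.64 and 7.56 CPM in the mutants and 7.55, 7.81, 8.48 and 7.95 CPM in wild type at 25 °C. At 20 °C *gst-16* had 15.3, 14.1, 14.7 and 17.7 CPM in the mutants and 8.49, 8.64, 11.2 and 9.69 CPM in wild type. Mutants were above wild type at 20 °C and overlapped it at 25 °C, and the interaction of -0.77 ± 0.15 (adjusted p = 0.0131) kept its call without each library. Over the list of 21 glutathione S-transferase genes tested, these 3 passed, all lower (0.693% of genes tested). Of the 21, 17 lay below 0 and 4 above (47.8% of genes tested were above 0). The median interaction was -0.29, against -0.01 for all genes. The median strain difference of the list was -0.16 at 25 °C and 0.10 at 20 °C. Leaving out libraries or changing the scaling or test moved the median between -0.32 and -0.20. The count of 3 fell to 1 without mutant replicate 2, 3 or 4 at 25 °C, mutant replicate 3 at 20 °C, or wild-type replicate 1 or 2 at 20 °C. *gst-24* lost its call without 12 of the 16 libraries and *gst-4* without 7.

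The F-box gene *fbxc-5* (WBGene00016646, chromosome IV, 903696 to 905071) had 0.3905, 0.693, 0.661 and 1.37 CPM in the mutants and 1.05, 1.21, 1.11 and 0.553 CPM in wild type at 25 °C and 1.24, 1.67, 1.09 and 0.973 CPM in the mutants and 0.360, 0.231, 0.300 and 0.408 CPM in wild type at 20 °C. The strains overlapped at 25 °C and mutants were above wild type at 20 °C, with an interaction of -2.28 ± 0.53 (adjusted p = 0.0360), but none of its 16 estimated counts was whole, so its reads were shared with other transcripts. It was the only member called among 38 F-box C genes. None of 61 F-box A genes or 101 F-box B genes tested passed an adjusted p of 0.05, and the family medians were -0.04 and 0.06. In each family 7 genes had an unadjusted p under 0.05, where 14.5% of all genes tested did. The SLC17 family transporter gene *slc-17.9* (WBGene00011643, chromosome X, 9761479 to 9764922) had 0.651, 0.882, 0.954 and 0.848 CPM in the mutants and 0.557, 1.27, 0.626 and 0.760 CPM in wild type at 25 °C. At 20 °C *slc-17.9* had 1.04, 0.741, 0.613 and 0.892 CPM in the mutants and 0.0719, 0.154, 0.225 and 0.204 CPM in wild type. Mutants and wild type overlapped at 25 °C, and at 20 °C wild type was the low group, with an interaction of -2.25 ± 0.55 (adjusted p = 0.0441).

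K07D4.9 (WBGene00019488, chromosome II, 4028576 to 4029985) had 3.58, 3.28, 2.42 and 2.61 CPM in the mutants and 2.35, 2.67, 2.29 and 3.32 CPM in wild type at 25 °C. At 20 °C K07D4.9 had 4.05, 5.56, 5.18 and 6.57 CPM in the mutants and 1.58, 1.31, 1.42 and 1.84 CPM in wild type. The mutants at 20 °C were the high group and the other 3 groups lay at 3.58 CPM or lower, with an interaction of -1.63 ± 0.28 (adjusted p = 0.00606). M01G12.9 (WBGene00010822, chromosome I, 12108588 to 12112505) had 2.60, 2.33, 2.64 and 3.46 CPM in the mutants and 5.51, 5.65, 6.60 and 5.88 CPM in wild type at 25 °C and 0.914, 0.556, 0.409 and 0.730 CPM in the mutants and 0.288, 0.540, 0.300 and 0.612 CPM in wild type at 20 °C, with an interaction of -1.71 ± 0.40 (adjusted p = 0.0360). T06D8.10 (WBGene00011530, chromosome II, 11240932 to 11247514) had 2.60, 2.27, 3.16 and 2.54 CPM in the mutants and 4.39, 6.03, 4.73 and 5.32 CPM in wild type at 25 °C and 0.849, 1.30, 0.682 and 1.05 CPM in the mutants and 0.360, 0.848, 0.824 and 0.714 CPM in wild type at 20 °C, with an interaction of -1.47 ± 0.36 (adjusted p = 0.0425). In these 2 genes the strains were apart at 25 °C, with mutants below, and overlapped at 20 °C. C46A5.4 (WBGene00016700, chromosome IV, 7748096 to 7757345) had 2.08, 2.52, 2.64 and 1.70 CPM in the mutants and 4.58, 4.95, 5.98 and 4.56 CPM in wild type at 25 °C. At 20 °C it had 0.261, 0.247, 0.204 and 0.162 CPM in the mutants and 0, 0.0771, 0.0749 and 0 CPM in wild type. Mutants were below wild type at 25 °C, by -1.17 ± 0.18 on the log2 scale, and above it at 20 °C, where 13 counts in the mutants stood against 2 in wild type, a ratio of 5.56 (95% exact interval 1.26 to 50.7, counting error only). The fitted interaction was -3.41 ± 0.76 (adjusted p = 0.0293). The called genes *daf-10*, *dyf-5*, ZC84.1, C26D10.6, *gst-4*, C46A5.4 and T06D8.10 overlap other genes in the annotation, and strand was not kept to separate their reads. Overlap here is of whole gene spans, introns included, so it need not touch the exons. Of these genes, *dyf-5*, *gst-4*, C46A5.4 and T06D8.10 had whole estimated counts in all 16 libraries. The part of the overlap in the values was not tested.

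Of the genes below a fold of 2, 3 of the more abundant are given first. The smallest p of all genes tested belonged to *odc-1* (WBGene00003844, chromosome V, 6898540 to 6900223), which encodes ornithine decarboxylase, the first enzyme of polyamine synthesis. It had 105, 98.9, 102 and 105 CPM in the mutants and 147, 139, 131 and 154 CPM in wild type at 25 °C. At 20 °C *odc-1* had 75.8, 75.6, 76.8 and 75.4 CPM in the mutants and 73.0, 69.6, 78.6 and 72.1 CPM in wild type. Every mutant library was below every wild-type library at 25 °C, and the strains overlapped at 20 °C. The strain difference was -0.48 ± 0.05 at 25 °C and 0.05 ± 0.05 at 20 °C, and the interaction was -0.52 ± 0.07 (adjusted p = 0.000734). It stayed between -0.56 and -0.45 in 27 alternatives, with adjusted p of 4.24e-08 to 0.00552. The chaperone gene *hsp-110* (WBGene00016250, chromosome III, 8443910 to 8446909), a nucleotide exchange factor for HSP70, had 100.2, 99.4, 107 and 98.9 CPM in the mutants and 98.0, 98.3, 105 and 92.1 CPM in wild type at 25 °C. At 20 °C *hsp-110* had 122, 119.8, 119 and 121 CPM in the mutants and 155, 153, 173 and 153 CPM in wild type. Wild type at 20 °C was the high group and the strains overlapped at 25 °C, with strain differences of 0.04 ± 0.05 and -0.40 ± 0.05 at 25 °C and 20 °C and an interaction of 0.45 ± 0.06 (adjusted p = 0.00168). For *flh-2* (WBGene00016138, chromosome III, 4952124 to 4955171), a FLYWCH zinc finger factor that represses microRNA genes in embryos, the libraries had 211, 209, 204 and 199.9 CPM in the mutants and 203, 211, 203 and 201 CPM in wild type at 25 °C. They had 163, 162, 148 and 147 CPM in the mutants and 119, 125, 112 and 114 CPM in wild type at 20 °C. The strains overlapped at 25 °C and mutants were above wild type at 20 °C, with an interaction of -0.39 ± 0.06 (adjusted p = 0.00250).

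Of the other genes with the smallest p in their direction, *hpo-15* (WBGene00016061, chromosome V, 5509930 to 5513830) was below wild type at 25 °C and above it at 20 °C without overlap, with 19.7, 23.7, 21.5 and 23.0 CPM in the mutants and 24.6, 29.8, 26.3 and 30.6 CPM in wild type at 25 °C. At 20 °C *hpo-15* had 11.95, 10.1, 9.68 and 9.49 CPM in the mutants and 7.48, 6.94, 7.56 and 6.94 CPM in wild type. Its strain differences were -0.34 ± 0.08 and 0.51 ± 0.11 at 25 °C and 20 °C, and the interaction was -0.85 ± 0.14 (adjusted p = 0.00427). The transmembrane and coiled-coil gene *tcc-1* (WBGene00013340, chromosome V, 17845736 to 17855989) went the opposite way, above wild type at 25 °C and below it at 20 °C without overlap. It had 115, 113, 109.98 and 113 CPM in the mutants and 99.8, 102, 102 and 103 CPM in wild type at 25 °C. At 20 °C *tcc-1* had 109.5, 119.6, 120.2 and 125 CPM in the mutants and 145, 132, 139.9 and 127 CPM in wild type, and the interaction was 0.35 ± 0.06 (adjusted p = 0.00979). Y39E4B.6 (WBGene00012717, chromosome III, 13070756 to 13074305) had 96.5, 99.9, 104 and 98.4 CPM in the mutants and 105, 108, 107 and 113 CPM in wild type at 25 °C and 85.2, 84.3, 87.8 and 79.5 CPM in the mutants and 70.8, 72.9, 75.5 and 70.4 CPM in wild type at 20 °C. As in *hpo-15*, mutants were below wild type at 25 °C and above it at 20 °C without overlap, and the interaction was -0.34 ± 0.06 (adjusted p = 0.00876). For C27C7.1, B0393.5 and *tag-273* the strains overlapped at 25 °C, and every mutant library was below every wild-type library at 20 °C. C27C7.1 had 6.47, 5.74, 7.22 and 7.22 CPM in the mutants and 14.1, 14.5, 13.3 and 13.6 CPM in wild type at 20 °C and an interaction of 0.87 ± 0.13 (adjusted p = 0.00250). B0393.5 had 9.08, 6.61, 6.47 and 5.92 CPM in the mutants and 16.8, 15.7, 15.8 and 14.9 CPM in wild type at 20 °C and an interaction of 0.90 ± 0.15 (adjusted p = 0.00465). At 20 °C *tag-273* had 34.2, 23.1, 25.6 and 25.5 CPM in the mutants and 55.0, 46.8, 45.4 and 50.2 CPM in wild type, with an interaction of 0.69 ± 0.13 (adjusted p = 0.0126). All of these, *odc-1*, *hsp-110* and *flh-2* included, kept an adjusted p under 0.05 in 27 alternatives, among them the omission of each library.

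Of the lists examined, the one with the most members past the test was that of cytosolic ribosomal proteins, the protein components of the ribosome. All 79 tested had an interaction below 0, with a median of -0.29 and a 25th to 75th percentile of -0.33 to -0.24, against a median of -0.01 for all genes. In 41 of the 79 the interaction passed an adjusted p of 0.05, all lower and none with a fold above 2, and in 75 the unadjusted p was under 0.05 (14.5% of genes tested). These 41 were 41 of the 84 genes with a lower ratio at 25 °C. The median strain difference of the 79 was -0.10 at 25 °C, where 72 were below 0 (42.3% of genes tested were above 0), and 0.18 at 20 °C, where 78 were above 0 (50.4%). At an adjusted p under 0.05, 10 were lower and 1 higher in mutants at 25 °C (6.61% of genes tested passed), and 53 were higher and 0 lower at 20 °C (12.7%). The mutant libraries did not overlap wild type in 5 of the 79 at 25 °C and in 56 at 20 °C (12.7% and 18.3% of genes tested do so in either direction). Together the 80 genes of the list, tested or not, held 3.14%, 3.31%, 3.36% and 3.18% of all counts in the mutants and 3.59%, 3.36%, 3.27% and 3.82% in wild type at 25 °C, and 3.66%, 3.66%, 3.76% and 3.72% in the mutants and 3.37%, 3.29%, 3.28% and 3.42% in wild type at 20 °C. Mutants at 20 °C were above wild type without overlap, and at 25 °C the strains overlapped, with wild type spread the widest. The strain difference in this share was -0.26 percentage points at 25 °C and 0.36 at 20 °C, and the difference between them was -0.62 ± 0.14 (SE).

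Small and large subunit genes both took part. In *rps-15*, a small subunit gene and the member with the smallest p, the libraries had 339, 362, 349.7 and 331 CPM in the mutants and 391, 347, 345 and 376 CPM in wild type at 25 °C. They had 435, 426, 431 and 448.8 CPM in the mutants and 359.8, 348, 324 and 368 CPM in wild type at 20 °C. Mutants at 20 °C were the high group, the other 3 groups overlapped, and the interaction was -0.39 ± 0.07 (adjusted p = 0.00465). For *rps-8*, 517, 545, 529.6 and 503 CPM in the mutants and 579.9, 538, 553 and 581.9 CPM in wild type were measured at 25 °C. At 20 °C *rps-8* had 624, 603, 635 and 635 CPM in the mutants and 559, 527, 537 and 540.2 CPM in wild type, again with the mutants at 20 °C apart, and the interaction was -0.31 ± 0.05 (adjusted p = 0.00685). The large subunit genes *rpl-31* and *rpl-25.2* had interactions of -0.36 ± 0.06 (adjusted p = 0.00979) and -0.34 ± 0.07 (adjusted p = 0.0166). The 3 stalk protein genes *rla-0*, *rla-1* and *rla-2*, whose products recruit elongation factors to the ribosome, had interactions of -0.29 ± 0.07 (adjusted p = 0.0410), -0.42 ± 0.08 (adjusted p = 0.0193) and -0.39 ± 0.09 (adjusted p = 0.0341). For *rack-1*, a scaffold protein bound to the small subunit, it was -0.24 ± 0.06 (adjusted p = 0.0430). Among the 41 the largest was that of *rps-21* at -0.52 ± 0.13 (adjusted p = 0.0484). By contrast translation factors, the soluble proteins that run the ribosome, had 0 of 38 at an adjusted p under 0.05 and 4 at an unadjusted p under 0.05 (14.5% of genes tested), with a median of -0.03 and 26 of 38 below 0, against 20 of 38 above 0 with RLE scaling.

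The size of the ribosomal shift was steadier than its count of calls. Over the alternatives the median stayed between -0.31 and -0.23 and at most 1 of the 79 was above 0. The count of 41 became 26 under each of RLE, upper-quartile and within-temperature TMM scaling. It became 14, 21, 22 and 7 without mutant replicate 1, 2, 3 or 4 at 25 °C, 18 and 63 without wild-type replicate 1 or 3 at 25 °C, 6, 4 and 16 without mutant replicate 2, 3 or 4 at 20 °C, and 17, 7 and 24 without wild-type replicate 1, 2 or 3 at 20 °C. With the stage score as a covariate, which could move the estimates little as given below, the median was -0.29 and 48 passed. None of the 41 had whole estimated counts in more than 2 of the 16 libraries, so their reads were divided among transcripts, and the part of this in the values was not tested.

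**Figure D3:**
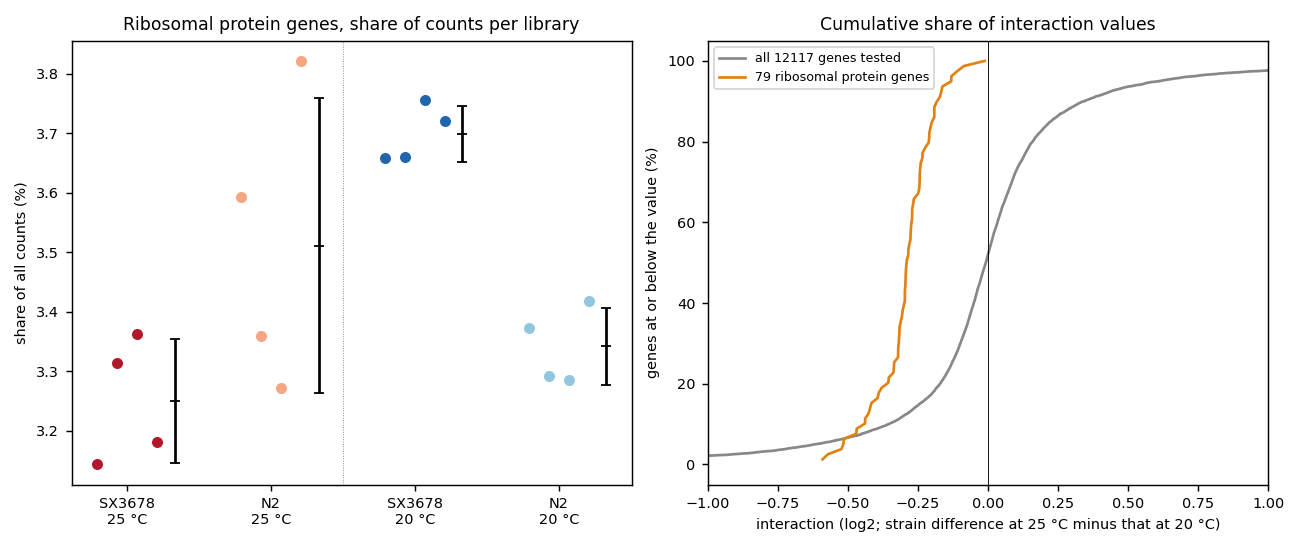
Left, share of all counts (%) held by the 80 ribosomal protein genes of the list in each library, with the mean and SD of each group (n = 4) beside the points; the 4 SX3678 libraries at 20 °C lie above the 4 N2 libraries at 20 °C, and the strains overlap at 25 °C. Right, cumulative share of genes (%) against the interaction (log2) for the 79 of them that were tested and for all 12117 genes tested; the ribosomal curve ends below 0, and the horizontal axis is cut at -1 and 1.

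Of 6 gene lists for tissues of the late embryo, those of cilia, body-wall muscle and epidermis had medians above 0. Those of neurons, intestine and pharynx had medians just below 0 that were above 0 with RLE scaling. Over all genes tested 47.8% were above 0, 1.16% had an adjusted p under 0.05 and 14.5% an unadjusted p under 0.05. Cilia genes had a median of 0.62, with 25 of 30 above 0 and 2 at an adjusted p under 0.05, *dyf-5* and *nphp-1*, both higher, and 12 at an unadjusted p under 0.05. Omitting wild-type replicate 1 at 20 °C gave a cilia median of 0.37 and no calls. None passed either without mutant replicate 2 or 3 at 25 °C, mutant replicate 2, 3 or 4 at 20 °C, or with limma-voom. Their median strain difference was -0.33 at 25 °C and -0.87 at 20 °C. The transition zone gene *nphp-1*, which gates entry into the cilium, had 16.5, 24.6, 22.4 and 19.0 CPM in the mutants and 21.8, 23.0, 24.3 and 23.9 CPM in wild type at 25 °C. At 20 °C *nphp-1* had 4.05, 3.09, 2.79 and 3.08 CPM in the mutants and 7.62, 6.17, 6.36 and 6.32 CPM in wild type. The strains overlapped at 25 °C and were apart at 20 °C, with an interaction of 0.85 ± 0.19 (adjusted p = 0.0293). Body-wall muscle genes had a median of 0.17, with 25 of 32 above 0 and 3 at an adjusted p under 0.05, all higher. These were the troponin T gene *mup-2* with 0.74 ± 0.15 (adjusted p = 0.0207), the myosin light chain gene *mlc-3* with 0.57 ± 0.13 (adjusted p = 0.0293) and the calponin-like gene *clik-1* with 0.89 ± 0.19 (adjusted p = 0.0256). At 20 °C *mup-2* had 13.1, 10.7, 8.32 and 10.1 CPM in the mutants and 20.6, 17.4, 17.5 and 17.037 CPM in wild type, without overlap, and the strains overlapped at 25 °C. None of the 3 passed when mutant replicate 2 or 3 or wild-type replicate 1 at 20 °C was left out. With mutant replicate 1 at 20 °C left out 8 muscle genes passed, and 11 did with wild-type replicate 3 at 25 °C left out. Omitting mutant replicate 1 at 20 °C gave a median of 0.27, and omitting wild-type replicate 2 at 20 °C gave 0.26. Epidermal genes had a median of 0.13 with 22 of 27 above 0, none past an adjusted p of 0.05 and 8 at an unadjusted p under 0.05. Omitting wild-type replicate 4 at 25 °C gave an epidermal median of 0.07. With wild-type replicate 3 at 25 °C left out, 4 epidermal genes passed. Neuronal genes had a median of -0.0045 with 15 of 30 above 0, and 0 passed, with 6 at an unadjusted p under 0.05. Intestinal genes had a median of -0.03 with 11 of 23 above 0 and pharyngeal genes -0.03 with 8 of 19 above 0. In either list 0 passed, with 3 intestinal and 5 pharyngeal genes at an unadjusted p under 0.05.

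Lists of maternal and germline transcripts also had medians above 0, and these transcripts were mostly lower at 25 °C than at 20 °C. In wild type the median of the P granule and primordial germ cell list was -0.52 for 25 °C over 20 °C, and that of the maternal list was -0.43. P granule and germ cell genes had a median interaction of 0.13, with 28 of 34 above 0 and 2 at an adjusted p under 0.05. These were *meg-1*, a P granule scaffold gene, with 0.29 ± 0.07 (adjusted p = 0.0462), and *wago-1*, an Argonaute, with 0.30 ± 0.08 (adjusted p = 0.0498). *meg-1* lost its call without 12 of the 16 libraries and *wago-1* without 11, and both with limma-voom, while DESeq2 called 7 genes of the list. At 25 °C *meg-1* had 88.3, 83.3, 85.7 and 86.0 CPM in the mutants and 70.2, 74.7, 77.1 and 63.5 CPM in wild type. At 20 °C it had 117, 119.8, 119 and 119 CPM in the mutants and 119, 129, 112 and 122.7 CPM in wild type. Mutants were above wild type at 25 °C without overlap, and the strains overlapped at 20 °C. At an adjusted p under 0.05, 10 of the 34 were higher in mutants at 25 °C (2.67% of genes tested) and 2 at 20 °C (5.51%), the second near the share of all genes. Maternal transcripts had a median interaction of 0.12, with 21 of 28 above 0, none past an adjusted p of 0.05 and 13 at an unadjusted p under 0.05 (14.5% of genes tested). Early zygotic transcripts had a median of -0.08, with 11 of 38 above 0, none past an adjusted p of 0.05 and 8 at an unadjusted p under 0.05. Omitting wild-type replicate 3 at 20 °C gave a median of -0.03.

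Among stress and surface lists, the inducible heat shock list, made up of small heat shock protein and HSP70 genes, had a median of 0.30 with 8 of 9 above 0. Omitting wild-type replicate 1 at 25 °C gave a median of 0.51. None of the 9 passed an adjusted p of 0.05 and 4 had an unadjusted p under 0.05 (14.5% of genes tested), the smallest being that of the HSP70 gene F44E5.4 (0.89 ± 0.23, adjusted p = 0.0603). Of the 24 cytosolic chaperone genes 1 passed, *hsp-110*, and the list's median was 0.05 with 18 above 0. Of the 21 chaperone and stress genes of the endoplasmic reticulum and mitochondria 1 passed, the PERK kinase gene *pek-1*, with 0.36 ± 0.09 (adjusted p = 0.0435), lost without 10 of the 16 libraries. The median of these 21 was 0.04 with 18 above 0. Over all genes tested 1.16% passed and 47.8% were above 0. In the precuticle list *lpr-4* and *lpr-5* passed, the second with 0.85 ± 0.20 (adjusted p = 0.0360), lost without 9 of the 16 libraries, and the list's median was 0.02 with 16 of 30 above 0. Cuticle collagens had a median of -0.24 with 31 of 73 above 0, none past an adjusted p of 0.05 and 15 at an unadjusted p under 0.05. In the hedgehog-related and patched-related list the patched-related gene *ptr-25* passed, with 0.74 ± 0.18 (adjusted p = 0.0388), and lost its call with DESeq2, which called 3 other members, and without 12 of the 16 libraries. Most members went the other way, with a list median of -0.12 and 23 of 56 above 0. The heterochronic zinc finger gene *hbl-1* passed in the list of hatching larva transcripts, with 0.92 ± 0.22 (adjusted p = 0.0373), lost without 10 of the 16 libraries. That list had no common direction, with a median of -0.0053 and 7 of 14 above 0. The core subunits of SCF ligases had a median of -0.03, with 10 of 29 above 0 (16 of 29 with RLE scaling), none past an adjusted p of 0.05 and 3 at an unadjusted p under 0.05. For the lists of the text with 0 calls in edgeR, limma-voom also gave 0, and DESeq2 gave 1 intestinal, 3 epidermal, 6 maternal, 1 inducible heat shock and 2 collagen genes, all higher, and 0 in the neuronal, pharyngeal, early zygotic, translation factor, SCF core, F-box A, F-box B and mitochondrially encoded lists. The signs of the medians of the cilia, muscle, epidermis, P granule, maternal, early zygotic, inducible heat shock, collagen, glutathione S-transferase and ribosomal lists held in all 25 alternatives run on each list.

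**Figure D4:**
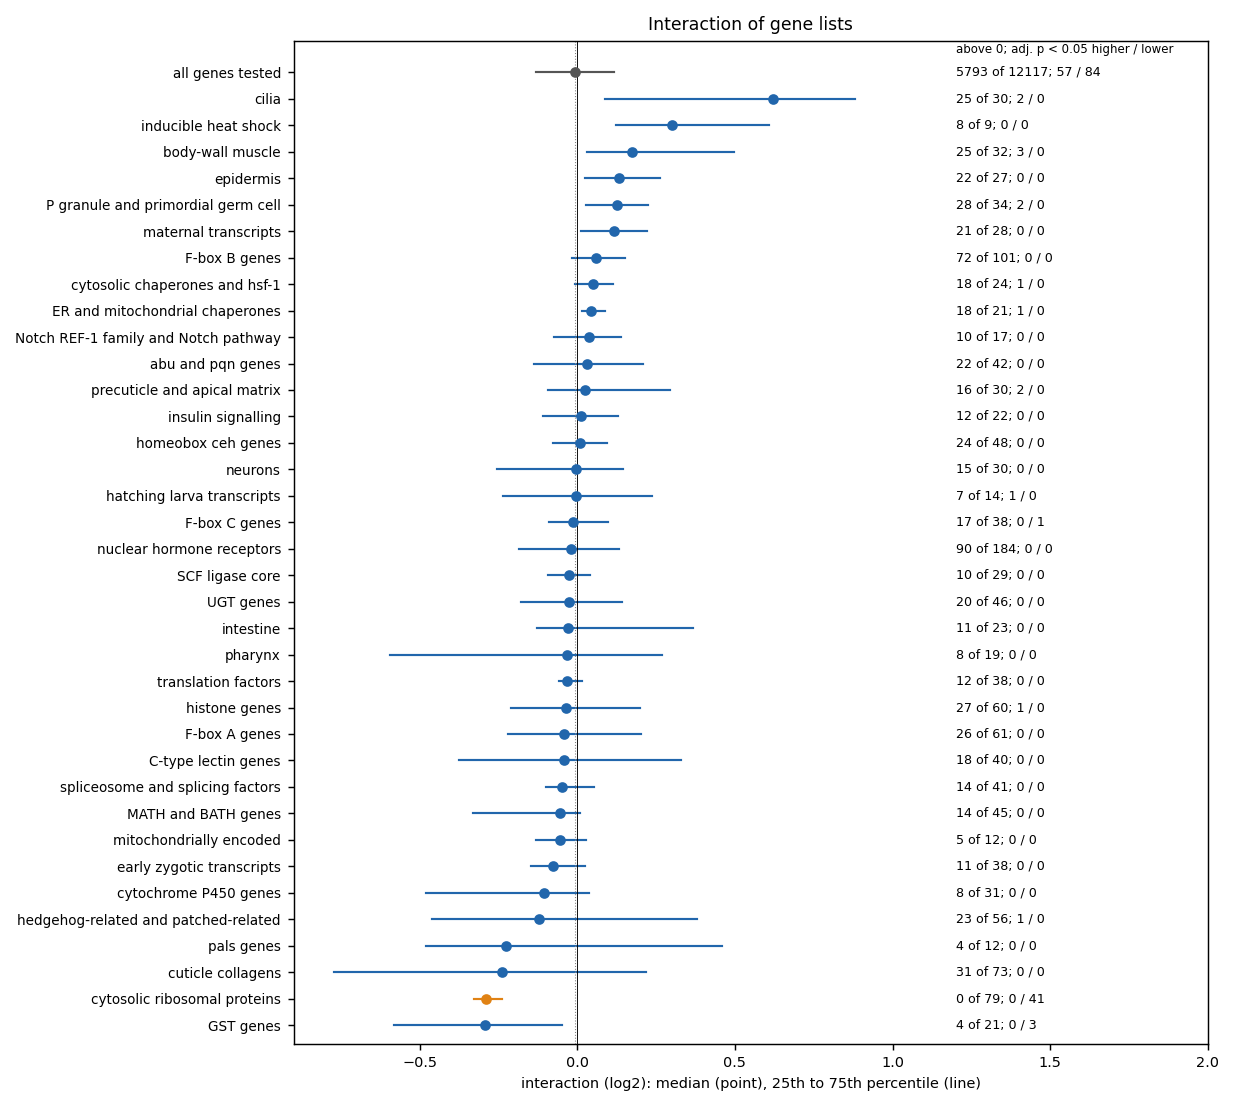
Median interaction (log2, point) and the 25th to 75th percentile (line) of the genes tested in each list, with all genes tested at the top. The numbers at the right give the members above 0 of those tested, then the members higher and lower at an adjusted p under 0.05. Cilia genes have the highest median (0.62) and ribosomal protein genes the narrowest range below 0. The list of adult transcripts, with 5 genes tested, is not drawn.

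A score of developmental stage differed between strains by nearly equal amounts at both temperatures. The stage score, the mean log2 CPM of 89 muscle, neuron and epidermis genes minus that of 28 maternal genes, lay at -0.15, 0.03, -0.03 and -0.20 in the mutants and 0.08, 0.13, 0.24 and 0.11 in wild type at 25 °C, and at -1.42, -1.66, -1.72 and -1.65 in the mutants and -1.26, -1.36, -1.47 and -1.39 in wild type at 20 °C. Mutants were below wild type by -0.23 at 25 °C and by -0.24 at 20 °C, and the difference between these was 0.01 ± 0.10 (SE), within its error. The parts of the score did not stay level: the strain difference in the maternal mean was 0.10 at 25 °C and -0.0034 at 20 °C, and that in the mean of the late genes was -0.13 at 25 °C and -0.24 at 20 °C. The differences between temperatures were 0.11 ± 0.05 (SE) for the maternal mean and 0.12 ± 0.09 (SE) for the late mean, and they cancel in the score. For the mean of the cilia list the strain difference was -0.30 at 25 °C and -0.70 at 20 °C, an interaction of 0.40 ± 0.12 (SE). With the stage score as a covariate, 52 genes were called and 308 had an adjusted p under 0.05, among them all 22 and all 141 genes of the fit without it. Because the score's own interaction was near 0, this covariate could move the estimates little. The fit therefore does not test the part of stage. In means, the score was -0.09 in the mutants and 0.14 in wild type at 25 °C, and -1.61 in the mutants and -1.37 in wild type at 20 °C, and the part of stage in the interactions was not tested.

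**Figure D5:**
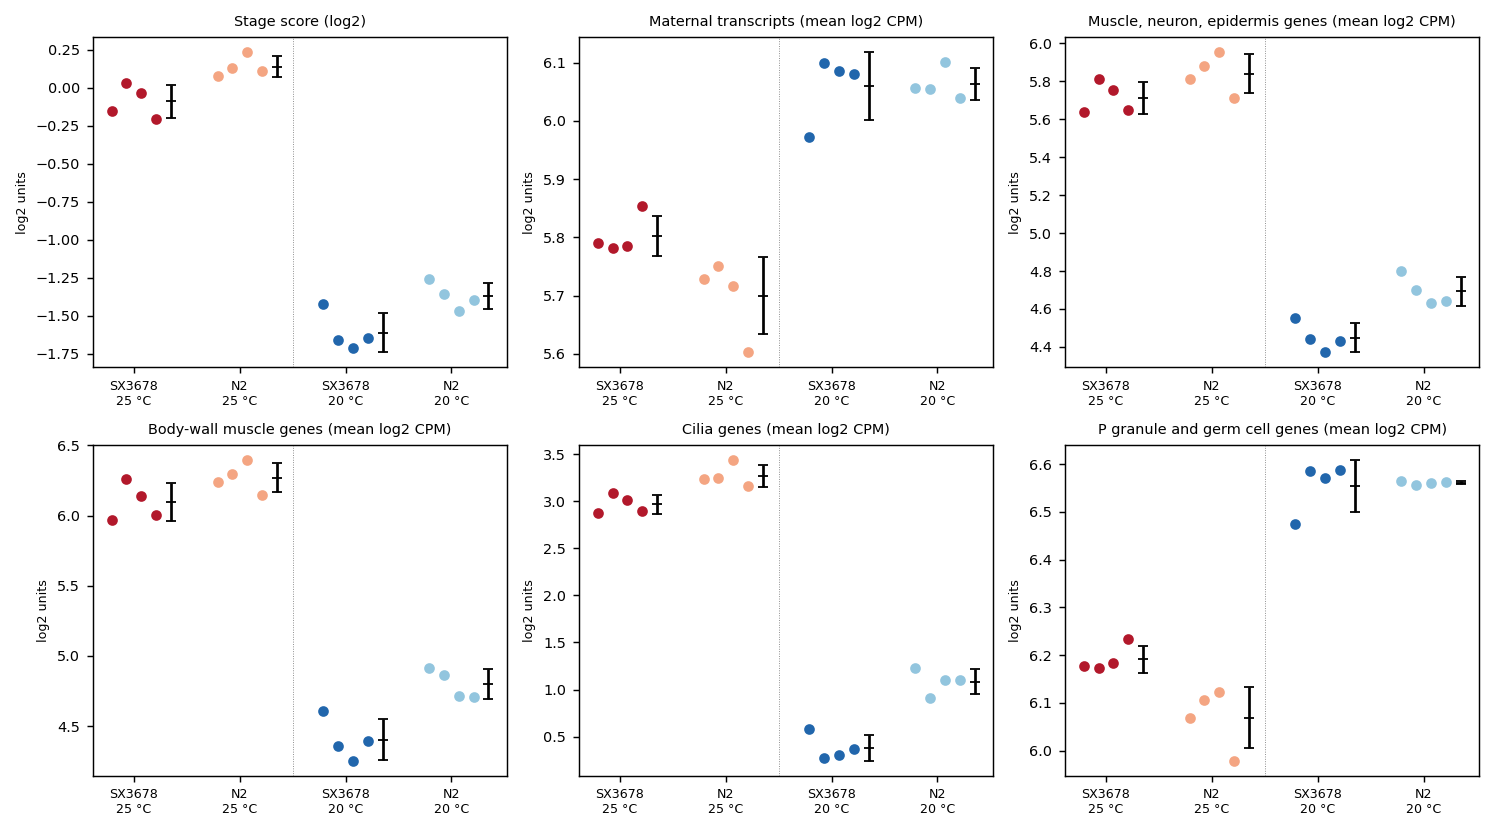
Stage score and mean log2 CPM of 5 gene lists in the 16 libraries, one point per library, with the mean and SD of each group (n = 4) at the right of its points; each panel has its own vertical axis in log2 units. In the stage score panel the gap between SX3678 and N2 is alike at 25 °C and 20 °C (-0.23 and -0.24), and in the cilia panel it is smaller at 25 °C (-0.30) than at 20 °C (-0.70).

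The interaction was also read for 3 genes chosen because earlier results of these data showed them changed alike at both temperatures. The strain difference of each passed at both temperatures, and 2 had no detected interaction. That choice favours small interactions, so the values are description and test nothing. The splicing factor gene *prp-31* had 382, 373, 392 and 398 CPM in the mutants and 187, 184, 187 and 196 CPM in wild type at 25 °C. At 20 °C *prp-31* had 505, 514, 519 and 539.7 CPM in the mutants and 218, 238, 227 and 234 CPM in wild type. Mutants were above wild type without overlap at both temperatures, by 1.04 ± 0.04 and 1.18 ± 0.04 on the log2 scale at 25 °C and 20 °C, and the interaction was -0.14 ± 0.05 (unadjusted p = 0.0148, adjusted p = 0.207). The initiation factor gene *eif-2D* was lower in mutants by -1.61 ± 0.09 at 25 °C and -1.63 ± 0.08 at 20 °C, with an interaction of 0.02 ± 0.13 (adjusted p = 0.972). The methyltransferase-like gene *metl-13* (C01B10.8) was lower in mutants at both temperatures, but by -1.42 ± 0.08 at 25 °C and -1.93 ± 0.08 at 20 °C. At 25 °C *metl-13* had 12.95, 13.5, 11.01 and 13.3 CPM in the mutants and 35.8, 33.6, 32.5 and 34.5 CPM in wild type. At 20 °C it had 12.5, 12.3, 11.8 and 9.24 CPM in the mutants and 45.0, 40.1, 46.1 and 45.5 CPM in wild type. The mutant levels were alike at both temperatures and wild type was higher at 20 °C, with an interaction of 0.51 ± 0.12 (adjusted p = 0.0327) that was lost without 8 of the 16 libraries.

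By chromosome, the shares of genes tested that were among the 141 lay on both sides of the overall 1.16%. Chromosome X held 18 of 1707 (1.05%), 14 of them higher and 4 lower at 25 °C. Chromosome II held 20 of 2240 (0.893%), 3 of them higher and 17 lower. Chromosome I held 34 of 2094 (1.62%), of which 24 were lower. III held 25 of 2005 (1.25%), of which 14 were lower. IV held 31 of 1907 (1.63%), of which 19 were lower, and V held 13 of 2116 (0.614%), of which 6 were lower. No mitochondrially encoded gene of the 12 tested passed, none of the 12 had an unadjusted p under 0.05, and the median of the 12 was -0.06. These are counts of genes tested together and carry no test of their own.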

How the data were processed

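Libraries from 4 groups of 4 (SX3678 and N2 embryos, 25 °C and 20 °C) were analysed. Per the labels and methods, Trimmomatic 0.39 was used for trimming and Salmon 1.5.1 for quantification, and the authors deposited estimated counts per gene in 1 table per temperature, not normalized. The build named in the submitters' notes is WBcel235, and the transcriptome release is not given in the sources used here. Salmon divides reads among matching transcripts, and 27.4% of deposited estimated counts were not whole (tolerance 0.01), so they were rounded. The deposited DESeq2 tables hold the authors' own comparisons and were not used.

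Of 21882 genes joined by identifier, 12117 passed filterByExpr and were fitted with edgeR 4.0.16 (quasi-likelihood test, TMM scaling over 16 libraries, 4 group means, R 4.3.3), with Benjamini-Hochberg adjustment over all of them. Called genes had an adjusted p under 0.05 and a fold above 2, the study's threshold. The SE was derived from the F statistic, and log2 CPM used a prior count of 2. Gene symbols and coordinates came from the WBcel235 annotation, which lacked 168 identifiers. Named genes were *fbxa-215*, all called genes, the 6 smallest p-values in each direction among other genes at an adjusted p under 0.05, list members at that threshold (of the ribosomal list a part), and *prp-31*, *eif-2D* and *metl-13*. Among lists with none at that threshold, F44E5.4 and *cul-6* were also named, as the members with the smallest p of theirs. This was not done for the other such lists. Members and lists were chosen with earlier results of these data known. Replicates differed by more than sampling noise (chi-square per degree of freedom of at least 1.97). Alternatives were DESeq2 1.42.0, limma-voom (limma 3.58.1), other scalings, filters and thresholds, unrounded counts, replicate blocks, a stage score covariate and leaving out each library. The pipeline was tested on simulated data. Intervals on counts cover counting error only.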

Additional observations from a re-analysis of the deposited data

Results flagged for a closer look

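Each gene below differed between temperatures in its strain difference by the interaction test, edgeR's quasi-likelihood test at an adjusted p under 0.05, and the values are interactions on the log2 scale. With a fold above 2 and a strain ratio that was higher at 25 °C there were *lpr-4* 1.94, *ncx-2* 1.40, F30H5.3 1.62, *daf-10* 1.04, ZC84.1 1.10, *his-45* 3.76, C26D10.6 2.35, *otpl-6* 3.08, *glf-1* 1.77, *dyf-5* 1.03, *far-1* 1.08, F16C3.2 1.67 and ZC449.2 1.60. *mboa-1*, at 0 counts in the mutants at 20 °C, passed at an adjusted p of 0.0193. With a fold above 2 and a lower ratio at 25 °C there were K07D4.9 -1.63, *gst-4* -3.28, C46A5.4 -3.41, *fbxc-5* -2.28, M01G12.9 -1.71, *gst-24* -1.42, T06D8.10 -1.47 and *slc-17.9* -2.25. Among the other genes named in the text, the higher ones were *hsp-110* 0.45, C27C7.1 0.87, B0393.5 0.90, *tcc-1* 0.35, *tag-273* 0.69, *mup-2* 0.74, *metl-13* 0.51, *hbl-1* 0.92, *mlc-3* 0.57, *pek-1* 0.36, *ptr-25* 0.74, *meg-1* 0.29, *nphp-1* 0.85, *wago-1* 0.30, *lpr-5* 0.85 and *clik-1* 0.89, and the lower ones were *odc-1* -0.52, *flh-2* -0.39, *hpo-15* -0.85, *rps-15* -0.39, *rps-8* -0.31, Y39E4B.6 -0.34 and *gst-16* -0.77. Of ribosomal protein genes, *rps-15* and *rps-8* included, 41 passed, all lower.

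In 13 groups of 4 libraries (6.05% of the groups examined), taken over the named genes and the list means, 1 library stood apart by a gap to its nearest neighbour that took up most of the range, which chance gives in about 1 in 20 groups. At 25 °C these were *his-45* at 0.571 CPM in wild-type replicate 2, and in mutants F16C3.2 at 1.56 CPM in replicate 1, ZC449.2 at 16.6 CPM and *ptr-25* at 235.14 CPM in replicate 2, and *hsp-110* at 107 CPM in replicate 3. At 20 °C they were *ptr-25* at 46.8 CPM in mutant replicate 1, *hsp-110* at 173 CPM in wild-type replicate 3, and *mup-2* at 20.6 CPM and *nphp-1* at 7.62 CPM in wild-type replicate 1. The maternal mean stood apart in mutant replicate 4 at 25 °C (5.85 log2 CPM) and in mutant replicate 1 at 20 °C (5.97 log2 CPM), and the P granule and germ cell mean in the same 2 libraries (6.23 and 6.47 log2 CPM).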

How the results depend on the processing

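The count of 22 called genes became 52 with DESeq2, 10 with limma-voom, 73 with no filter on low counts, 7 with at least 10 counts in every library, 52 with the stage score as a covariate, 141 without the fold minimum and 59 with an adjusted p below 0.1 and a fold above 2. The count of 141 genes at an adjusted p under 0.05 became 305 with DESeq2, 448 with no filter and 308 with the stage score. Leaving out 1 library gave 4 to 64 called genes and 19 to 420 genes at an adjusted p under 0.05, as given per library above. Fitting the 8 libraries of 20 °C alone gave 118 genes called between the strains, fewer than in the joint fit (43 higher and 172 lower). Of the named genes, 1 changed sign in an alternative, *eif-2D*, which had no detected interaction (-0.08 to 0.09). The cause of these changes was not tested.

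Samples with the same number did not deviate together (16 pairs, correlations of -0.19 to 0.25, 2 of them over 0.1), so the numbers were not used as pairs. A replicate block over 16 libraries gave 16 called genes and 95 at an adjusted p under 0.05, and a replicate block within temperature gave 35 and 217.

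Depth limits the low genes: the median SE was 0.532 under 2 CPM, and the 6 genes that passed there had interactions of at least 1.67 in size (F16C3.2). An interaction below 2-fold was not detectable there, and larger ones could also be missed. A call missing in such genes says nothing of the absence of an interaction. Temperature, hours after plating and batch cannot be told apart, and lists and members were chosen with earlier results of these data known.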

Other observations

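The remaining lists gave these values. Cytochrome P450 genes, which oxidize small molecules, had a median interaction of -0.11 with 8 of 31 above 0. MATH and BATH genes, substrate adaptors of another class of ubiquitin ligase, had a median of -0.06 with 14 of 45 above 0. For *pals* genes, known from the response to intracellular infection, the median was -0.23 with 4 of 12 above 0. C-type lectin genes had a median of -0.04 with 18 of 40 above 0, UGT genes -0.03 with 20 of 46 above 0, and nuclear hormone receptor genes -0.02 with 90 of 184 above 0. In each of these 6 lists edgeR and limma-voom gave 0 genes at an adjusted p under 0.05, and DESeq2 gave 1 C-type lectin gene, higher, and 0 in the others. By edgeR there were 7, 4, 1, 6, 5 and 15 genes at an unadjusted p under 0.05 in the order named, where 14.5% of all genes tested were. The spliceosome list had a median of -0.05 with 14 of 41 above 0, the *abu* and *pqn* list 0.03 with 22 of 42 above 0, insulin signalling 0.01 with 12 of 22 above 0, homeobox *ceh* genes 0.01 with 24 of 48 above 0, and the Notch list 0.04 with 10 of 17 above 0. In these 5 lists edgeR and limma-voom also gave 0 genes at an adjusted p under 0.05, with 5, 5, 4, 5 and 4 at an unadjusted p under 0.05 in the order named, and DESeq2 gave 1 *abu* or *pqn* gene, lower, and 2 insulin signalling genes and 1 Notch gene, all higher. Of the 5 adult transcripts tested 3 were above 0, and none had an unadjusted p under 0.05. The cullin gene *cul-6* had the smallest p of the SCF list, with an interaction of 2.02 ± 0.51 (adjusted p = 0.0524).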
